A study of Mus musculus with 12 samples.

Results

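The genes described here are those of the plasminogen activation system: Plau and Plat, which encode the urokinase-type and tissue-type plasminogen activators, Plaur, which encodes the urokinase receptor, and the inhibitor genes Serpinb2 and Serpine2. They were chosen by symbol from the platform annotation. Of the 5 genes listed, 4 (Plaur, Plau, Plat and Serpinb2) had a probe set with a single symbol, 1 each, among 8251 genes named on the array. Serpine2 was not analysed here. All 4 probe sets were tested, since each lay above the brightness below which 30% of the probe sets were left out.

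Plasminogen is a circulating zymogen that the 2 activators cut into plasmin, a protease that dissolves fibrin, degrades matrix and activates other proteases. Urokinase acts mostly on cell surfaces, where its receptor, anchored in the membrane by a glycolipid, concentrates it, whereas the tissue-type activator is made by endothelium and mesothelium, among other cells, and works best on fibrin. Serpins are inhibitors that trap their protease in a covalent complex. Serpinb2, also called plasminogen activator inhibitor type 2, inhibits urokinase and is largely kept inside the cell; it is known from stimulated macrophages and fibroblasts.

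Fat of male C57BL/6 mice, an inbred strain, aged 42 to 49 days, was pooled by depot from 10 mice and digested with collagenase. Whether the 3 arrays of a group come from separate pools is unstated. The 12 Affymetrix arrays fall into 4 groups of 3: isolated adipocytes of subcutaneous flank fat, isolated adipocytes of intraabdominal epididymal fat, cells of the stromo-vascular fraction (SVF) of subcutaneous flank fat and SVF cells of intraabdominal epididymal fat. SVF cells, a mixture of precursors, fibroblasts, vessel cells and immune cells, grew in plates with serum for 16 h before RNA extraction, while the adipocytes were not plated. Fraction and culture therefore cannot be told apart, nor can fewer cells of a type be told apart from less RNA per cell. Values are MAS5 signals, the array vendor's summary of a probe set on a linear scale. Differences are on a log2 scale after adding a pseudocount of 40.2 to the signal, and adjusted p-values are limma's, corrected by Benjamini-Hochberg over all 8695 tested probe sets. A probe set with an adjusted p under 0.05 was called.

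Adipocyte markers followed the labels of the fractions, but markers of other cell types also gave signal on the adipocyte arrays. The summed signal of 7 adipocyte markers ran from 374188 to 533021 on the 6 adipocyte arrays, against 15949 to 28944 on the 6 SVF arrays. Endothelial markers (9 genes) were also higher on the adipocyte arrays, at 13786 to 21966, against 1981 to 4513 in SVF cells. Macrophage markers (11 genes) summed to 20208 to 28200 in subcutaneous adipocytes and 21509 to 22102 in subcutaneous SVF cells. In intraabdominal fat they summed to 14301 to 22987 in adipocytes and 29481 to 33281 in SVF cells. The actin ratio, which sets signal from the 3' end of the transcript over that from its 5' end as a measure of RNA integrity, was 2.35 to 3.10 in subcutaneous adipocytes, 1.71 to 2.24 in intraabdominal adipocytes, 1.2 to 1.24 in subcutaneous SVF cells and 1.11 to 1.21 in intraabdominal SVF cells. It was higher in adipocytes than in SVF cells. Among adipocytes it was higher in the subcutaneous depot, while the SVF ranges of the depots overlapped.

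The results turn on Serpinb2 and Plaur, whose upstream sequences are given as context for the 2 genes that were called between depots. RefSeq entries on GRCm38.p6 were found for 2 of the 4 genes. The 250 bases before the first listed start site of Serpinb2 lie at chr1:107511173-107511422 and those of Plaur at chr7:24462233-24462482, both on the plus strand. Capitals mark 3 motifs, each searched on both strands. They are the TATA box, read as TATAAA, the site of the transcription factor AP-1, read as TGANTCA, and the GC box bound by factors such as Sp1, read as GGGCGG.
Serpinb2: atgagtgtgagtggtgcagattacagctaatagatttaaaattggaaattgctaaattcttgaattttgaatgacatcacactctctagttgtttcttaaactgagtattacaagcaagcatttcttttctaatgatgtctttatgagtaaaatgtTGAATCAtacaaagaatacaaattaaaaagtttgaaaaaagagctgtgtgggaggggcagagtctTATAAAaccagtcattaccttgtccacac
Plaur: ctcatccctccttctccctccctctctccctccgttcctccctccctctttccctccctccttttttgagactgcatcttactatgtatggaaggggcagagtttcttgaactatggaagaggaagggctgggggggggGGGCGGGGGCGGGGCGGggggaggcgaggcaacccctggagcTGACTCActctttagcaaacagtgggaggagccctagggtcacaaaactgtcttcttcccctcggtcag
Serpinb2 had a TATAAA beginning 29 bases before its first listed start site and a TGANTCA beginning 94 bases before it, and no GGGCGG. Counted from its second listed start site, they began 116 and 181 bases before it. Plaur had 1 TGANTCA beginning 69 bases before its start site and 3 copies of GGGCGG, which touch or overlap one another, and no TATAAA. Of the 32851 upstream windows of this length in the table, 12.4% held TATAAA, 6.75% TGANTCA and 32.7% GGGCGG. These matches describe letters only.

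Serpinb2 was the gene of the set with the widest range. It read 9508, 9291 and 7746 in the 3 subcutaneous SVF arrays, against 679.5, 639.8 and 558 in the intraabdominal ones. In adipocytes it read 216, 357 and 117 in the subcutaneous depot and 400.4, 409 and 349 in the intraabdominal depot. The 3 plated subcutaneous samples stood far above the other 9, and no value of another group came near them.

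**Figure D1:**
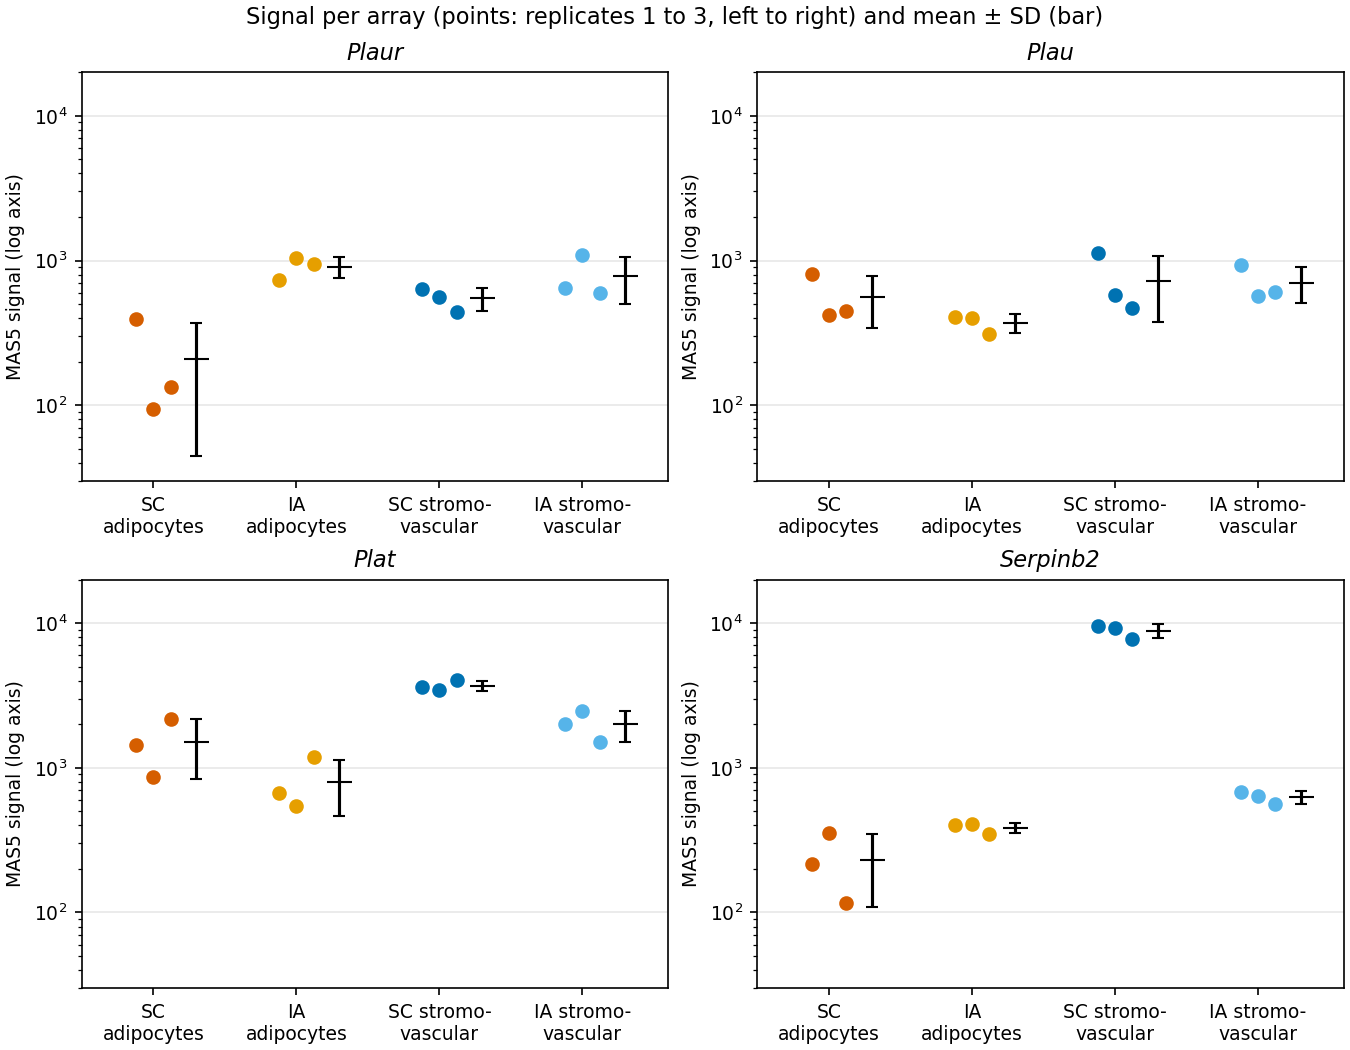
MAS5 signal of Plaur, Plau, Plat and Serpinb2 (log axis) on each of the 12 arrays, by group, with SC for subcutaneous and IA for intraabdominal; points are replicates and black bars the mean ± SD (n = 3). Serpinb2 averages 8849 in subcutaneous SVF cells and 626 in intraabdominal ones, and Plaur is lowest in subcutaneous adipocytes.

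Between the SVF cells of the depots the log2 difference of Serpinb2, subcutaneous minus intraabdominal, was 3.74 ± 0.27 (SE; adjusted p = 3.38e-07). Only 0.104% of the tested probe sets differed more. It was the 1 called gene of the 4 in this comparison, in which 12.9% of all probe sets were called (6.49% higher and 6.45% lower in the subcutaneous depot). In adipocytes the difference was -0.76 ± 0.27 (adjusted p = 0.0995), with overlapping groups. The depot differences of the fractions differed from each other by -4.49 ± 0.38 (adipocytes minus SVF cells; adjusted p = 3.91e-06). In that test of the interaction 8.43% of probe sets were called, and Serpinb2 was again the 1 gene of the 4. The call in SVF cells and that of the interaction held in each alternative run, including each of the 12 arrays left out in turn. The depot difference of Serpinb2 in adipocytes was called without subcutaneous adipocyte array 2, which held that group's highest value (-1.09, adjusted p = 0.0139), after quantile normalization (-1.08, adjusted p = 0.0249) and after median centring (-0.97, adjusted p = 0.0288).

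Against the SVF cells of its own depot, Serpinb2 was lower in subcutaneous adipocytes by a log2 difference of -5.14 ± 0.27 (35.2-fold lower, adjusted p = 9.77e-10). In intraabdominal fat all 3 adipocyte arrays lay below all 3 SVF arrays, but the difference was -0.64 ± 0.27 and was not called (adjusted p = 0.0611). In order of level, subcutaneous SVF cells (8849 ± 961, SD, n = 3) came first, then intraabdominal SVF cells (626 ± 62.1), intraabdominal adipocytes (386 ± 32.5) and subcutaneous adipocytes (229.7 ± 121). Of the neighbours in this order, only the first pair differed by the test. The probe set's name ends in _s_at, the vendor's sign for probes that several transcripts share.

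Several marker lists moved between the same SVF groups. The summed signal of 11 preadipocyte and fibroblast markers was 344124 to 375906 in subcutaneous and 240335 to 269934 in intraabdominal SVF cells, with 3 of the 11 called higher and 1 lower in the subcutaneous depot. The 11 macrophage markers summed to 21509 to 22102 in subcutaneous and 29481 to 33281 in intraabdominal cells (1 higher and 5 lower). Mesothelial markers (7 on the array, 5 tested) summed to 1087 to 1413 in subcutaneous and 6879 to 7064 in intraabdominal cells (5 lower). Endothelial markers summed to 3725 to 4513 in subcutaneous and 1981 to 2577 in intraabdominal cells (5 of 9 higher). The 7 smooth muscle and pericyte markers summed to 32241 to 34418 in subcutaneous and 124633 to 150096 in intraabdominal cells (6 lower). The 7 adipocyte markers summed to 23364 to 28944 in subcutaneous and 15949 to 19074 in intraabdominal cells (2 higher). Granulocyte sums overlapped, at 3504 to 4913 and 2840 to 4032 (1 of 3 tested higher). Macrophage, mesothelial and smooth muscle sums were thus lower where Serpinb2 was high, and fibroblast, adipocyte and endothelial sums were higher. The median log2 difference of the fibroblast markers was only 0.11, beside 0.06 over all probe sets, and that of the endothelial markers was 0.95. No detection call was used, so the sums do not show that each marker was detected. The part of these lists in the result was not tested.

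**Figure D2:**
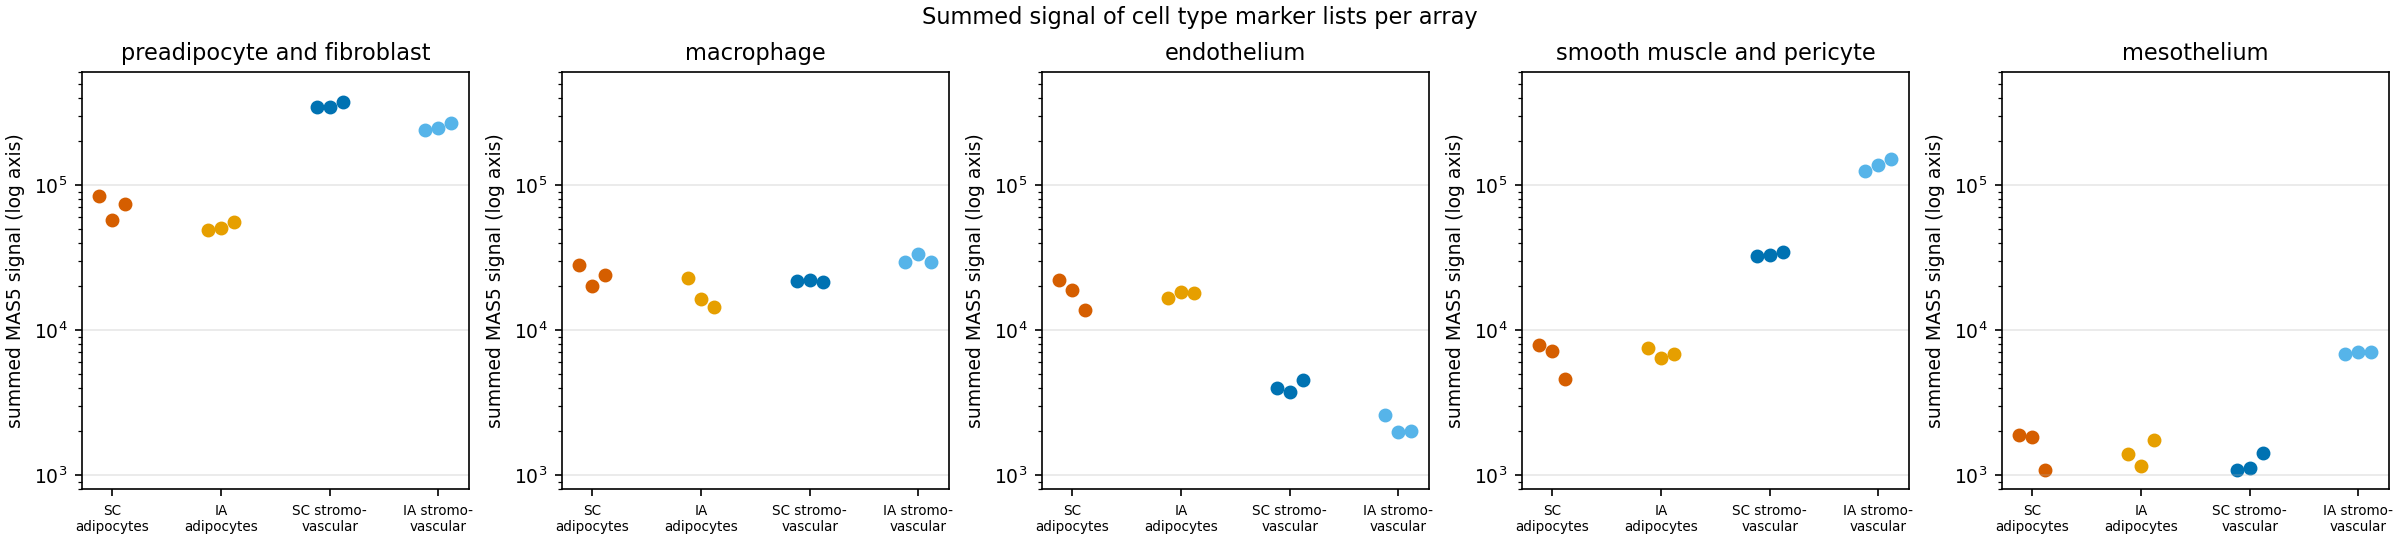
Summed MAS5 signal (log axis) of 5 lists of cell type markers on each array, by group, with SC for subcutaneous and IA for intraabdominal; points are replicates. Macrophage, smooth muscle and mesothelial sums are lower, and fibroblast and endothelial sums higher, in subcutaneous than in intraabdominal SVF cells.

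Plaur, the urokinase receptor, was the gene of the set that differed between adipocytes. It read 393, 94.9 and 133 in subcutaneous adipocytes, against 738, 1036 and 953 in intraabdominal adipocytes. The groups did not overlap, and the subcutaneous arrays spread more widely, with array 1 the highest. The log2 difference was -2.12 ± 0.38 (adjusted p = 0.00337), and 0.38% of the tested probe sets differed more. Plaur was the 1 called gene of the 4 in this comparison, in which 8.13% of all probe sets were called (3.97% higher and 4.16% lower in the subcutaneous depot). With the actin ratio of each array as a covariate, the difference was -2.48 ± 0.63 and was no longer called (adjusted p = 0.0866).

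In SVF cells Plaur read 639, 559.5 and 442 in the subcutaneous depot and 642, 1099 and 598 in the intraabdominal depot. These groups overlapped, and the log2 difference was -0.45 ± 0.38 (95% interval -1.26 to 0.37, adjusted p = 0.529). The difference between the depot differences was -1.67 ± 0.54 (adjusted p = 0.0748). It was called without subcutaneous adipocyte array 1 (-2.17, adjusted p = 0.00452), and also after quantile normalization (-1.91, adjusted p = 0.036), after median centring (-1.83, adjusted p = 0.0434) and with array weights (-1.72, adjusted p = 0.0413).

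The level of Plaur in subcutaneous adipocytes was also below that in SVF cells of the same depot (-1.42 ± 0.38, adjusted p = 0.00561), without overlap. In intraabdominal fat the groups overlapped, and the difference was 0.25 ± 0.38 (95% interval -0.57 to 1.06, adjusted p = 0.617). The 3 groups other than subcutaneous adipocytes had means of 909 ± 154 in intraabdominal adipocytes, 547 ± 99.4 in subcutaneous SVF cells and 779.8 ± 277 in intraabdominal SVF cells (SD, n = 3 each). The call in subcutaneous fat was lost with the actin ratio as a covariate (-2.34 ± 1.32, adjusted p = 0.29).

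Macrophages and granulocytes are known carriers of the urokinase receptor. The 11 macrophage markers summed to 20208 to 28200 in subcutaneous adipocytes and 14301 to 22987 in intraabdominal adipocytes, with 2 called higher in the subcutaneous depot and none lower. The 6 granulocyte markers, of which 3 were tested, summed to 3301 to 4970 in subcutaneous and 3246 to 4159 in intraabdominal adipocytes, with none called higher and 1 lower, as Plaur was. These ranges overlapped between the depots, while Plaur was lower in subcutaneous adipocytes. The part of either cell type in the Plaur result was not tested.

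Plat, the tissue-type activator, followed the fraction. It read 1446, 863 and 2188 in subcutaneous adipocytes and 671, 545 and 1182 in intraabdominal adipocytes. In SVF cells it read 3624, 3431 and 4023 in the subcutaneous depot and 1999, 2479.9 and 1503 in the intraabdominal depot. All adipocyte arrays of a depot lay below all SVF arrays of the same depot. The log2 difference, adipocytes minus SVF cells, was -1.37 ± 0.31 in subcutaneous fat (2.58-fold lower, adjusted p = 0.00188) and -1.32 ± 0.31 in intraabdominal fat (2.50-fold lower, adjusted p = 0.00249).

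Of the 4 genes, 3 (Plaur, Plat and Serpinb2) were called lower in adipocytes of subcutaneous fat, where 52.8% of all probe sets were called (23.5% higher and 29.4% lower). In intraabdominal fat 1 of the 4 (Plat) was called lower, beside 51.3% of all probe sets (22.4% higher and 29% lower), so that count is near the background. Both differences of Plat were uncalled with the actin ratio as a covariate, at 0.13 ± 1.02 (adjusted p = 0.958) in subcutaneous and -0.35 ± 0.70 (adjusted p = 0.769) in intraabdominal fat. The endothelial marker sum, in contrast to Plat, was higher in the adipocytes of both depots, with 9 of 9 markers called higher in each. Between the SVF cells, where the mean of Plat was higher in the subcutaneous depot, 5 of 9 endothelial markers were higher and 5 of 5 mesothelial markers lower. In intraabdominal fat the mesothelial markers moved with Plat, with 5 of 5 lower in adipocytes (sums of 1145 to 1750, against 6879 to 7064 in SVF cells). In subcutaneous fat 1 of the 5 was higher and none lower. Fibroblast markers were mostly lower in adipocytes, as Plat was, at 8 of 11 in subcutaneous and 9 of 11 in intraabdominal fat. The part of these cell types in the level of Plat was not tested.

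The mean of Plat was higher in the subcutaneous depot in both fractions, but neither difference was called. The log2 difference was 0.85 ± 0.31 in adipocytes (95% interval 0.18 to 1.52, adjusted p = 0.107) and 0.90 ± 0.31 in SVF cells (0.23 to 1.57, adjusted p = 0.0774), where the arrays of the depots did not overlap. In a fit of the 6 SVF arrays alone the difference in SVF cells was called (adjusted p = 0.00569). That call was also made without subcutaneous adipocyte array 2 or 3 or intraabdominal adipocyte array 3 (adjusted p = 0.0372, 0.044 and 0.0452), and the difference in adipocytes without subcutaneous array 2 or intraabdominal array 3 (log2 1.19 and 1.16, adjusted p = 0.0302 and 0.028). The depot differences of the fractions differed by -0.05 ± 0.44 (95% interval -1 to 0.9, adjusted p = 0.967).

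**Figure D3:**
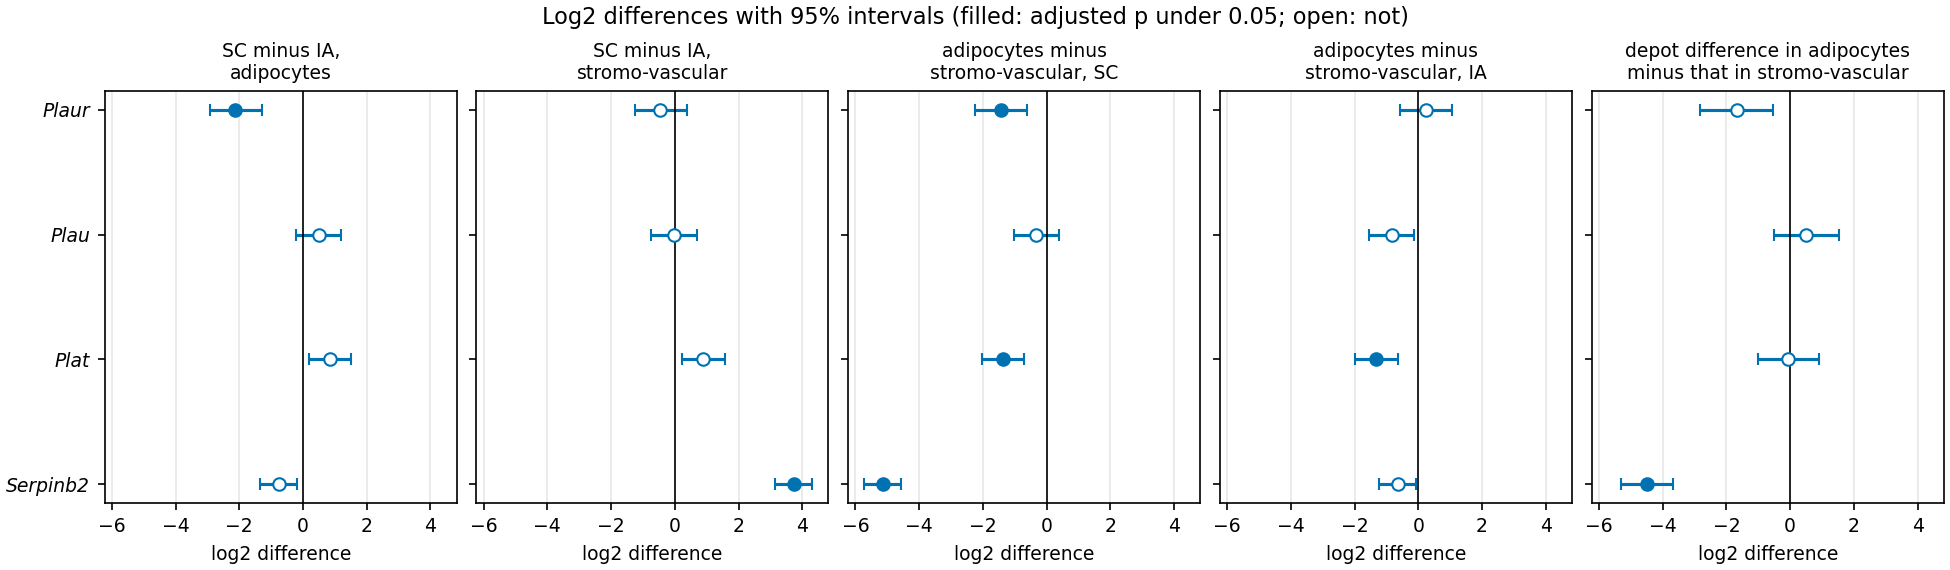
Log2 difference of each gene in the 5 comparisons, with 95% intervals; filled points are called (adjusted p under 0.05) and open points are not. SC is subcutaneous and IA intraabdominal. Serpinb2 lies at 3.74 between the SVF cells of the depots and at -0.76 between the adipocytes, and Plau is uncalled throughout.

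Plau, the urokinase gene, was called in none of the 5 comparisons (1 of 5 at an unadjusted p under 0.05). It read 809, 418 and 451 in subcutaneous adipocytes and 406, 402 and 309 in intraabdominal adipocytes. In SVF cells it read 1119.7, 579 and 474 in the subcutaneous depot and 930.1, 572 and 611 in the intraabdominal depot. The arrays of the 2 adipocyte groups did not overlap, but the gap between them was small beside the spread of the subcutaneous group. The log2 difference was 0.49 ± 0.33 in adipocytes (95% interval -0.22 to 1.2, adjusted p = 0.384) and -0.02 ± 0.33 in SVF cells (-0.74 to 0.69, adjusted p = 0.982).

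Against SVF cells of the same depot, Plau differed by -0.32 ± 0.33 in subcutaneous adipocytes (95% interval -1.03 to 0.40, adjusted p = 0.452) and by -0.83 ± 0.33 in intraabdominal adipocytes (-1.54 to -0.12, adjusted p = 0.0502). The last of these groups did not overlap, and the difference was called without subcutaneous adipocyte array 1 or 2 or subcutaneous SVF array 1 or 3 (adjusted p = 0.0321 to 0.0488). Serpinb2, at -0.64 in the same comparison, was called without subcutaneous adipocyte array 2 or 3 (adjusted p = 0.0186 and 0.0133).

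Across the 12 arrays the 4 genes did not share 1 pattern. Pearson's r of log2 signal was 0.69 between Plat and Serpinb2, 0.52 between Plau and Plat, and 0.38 between Plau and Serpinb2. Plaur had r of 0.22 with Serpinb2, 0.07 with Plau and -0.04 with Plat. These are descriptions, since arrays of 1 group share their source. The genes most like Serpinb2 by this measure were Ankrd28 (r = 0.98), Slc11a2, an iron transporter (0.979), and Slc48a1, a heme transporter (0.977). Those most like Plat were Cinp (0.953), Sprr2i (0.948) and Parm1 (0.943). Nearest to Plau were Rusc1 (0.95), Lmnb1, a nuclear lamin (0.888), and Efna2 (0.877), and nearest to Plaur were Anapc5 (0.911), Stx12 (0.869) and Rab7 (0.862).

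The remaining genes of the system were read in lists by role. Among cell-surface binders of plasminogen, 2 of 4 were lower in the subcutaneous depot in both fractions. Over all probe sets 4.16% were lower there in adipocytes and 6.45% in SVF cells. Against SVF cells, 3 of 4 were higher in adipocytes of each depot (Anxa2, S100a10 and Actb). Over all probe sets 23.5% were higher in subcutaneous and 22.4% in intraabdominal adipocytes. Both calls of Actb were lost with the actin ratio as a covariate (adjusted p = 0.369 in subcutaneous and 0.219 in intraabdominal fat). Anxa2 (annexin A2), which together with S100a10 forms a complex that holds plasminogen and the tissue-type activator at the membrane, averaged 53546 ± 7180 in subcutaneous and 98849 ± 12300 in intraabdominal adipocytes (adjusted p = 0.00237). In SVF cells it averaged 18293 ± 1690 in the subcutaneous and 30094 ± 4780 in the intraabdominal depot (adjusted p = 0.00508). The other lower gene was S100a10. The list's median log2 difference was -0.50 in adipocytes and -0.56 in SVF cells, beside 0.07 and 0.06 over all probe sets. Against SVF cells, Anxa2 was 2.91-fold higher in subcutaneous and 3.29-fold higher in intraabdominal adipocytes. The depot difference of S100a10 in adipocytes (-0.63, adjusted p = 0.0343) was uncalled without subcutaneous adipocyte array 1 or 2, intraabdominal adipocyte array 1 or 2, or subcutaneous SVF array 2 (adjusted p = 0.053 to 0.12), and another S100a10 probe set pointed the other way in both fractions. Both Anxa2 and S100a10 were uncalled between adipocytes with the actin ratio as a covariate (adjusted p = 0.229 and 0.799).

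Other serpins were mostly higher in the subcutaneous depot where they were called. Of 14 tested, 4 were higher and none lower in subcutaneous SVF cells, where 6.49% of all probe sets were higher. The list's median log2 difference was 0.26, beside 0.06 over all probe sets. Serpina3n, an acute-phase inhibitor, had the largest difference (3.56 ± 0.21, adjusted p = 6.89e-08), followed by Serpinb9, an intracellular inhibitor of granzyme B (8391 ± 889 in subcutaneous and 3471 ± 703 in intraabdominal cells, adjusted p = 0.000235). Serping1, the inhibitor of complement C1 and of plasma kallikrein, read 62942 ± 5880 in subcutaneous and 28836 ± 1870 in intraabdominal cells (adjusted p = 0.00036). Serpina3n, Serpinb9 and Serpinb6c belong to mouse clusters of closely related genes, so their probes may read a neighbour as well. The fourth, Serpinb6c, was uncalled when any 1 of the 6 SVF arrays was left out (adjusted p = 0.0631 to 0.13). Between adipocytes 2 of the 14 were higher in the subcutaneous depot, Serpinf1 (pigment epithelium-derived factor, adjusted p = 0.000186) and Serping1 (adjusted p = 0.00987), where 3.97% of all probe sets were higher. The median of the list was 0.21, beside 0.07 over all probe sets. The call of Serping1 was lost after median centring (0.59, adjusted p = 0.0658) and with the 6 adipocyte arrays alone (0.81, adjusted p = 0.092). Serpina3n, like Serpinb2, showed a depot difference that differed between the fractions (-4.18, adjusted p = 1.02e-06), with means of 29035 in subcutaneous and 45527 in intraabdominal adipocytes and 34432 in subcutaneous and 2925 in intraabdominal SVF cells.

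**Figure D4:**
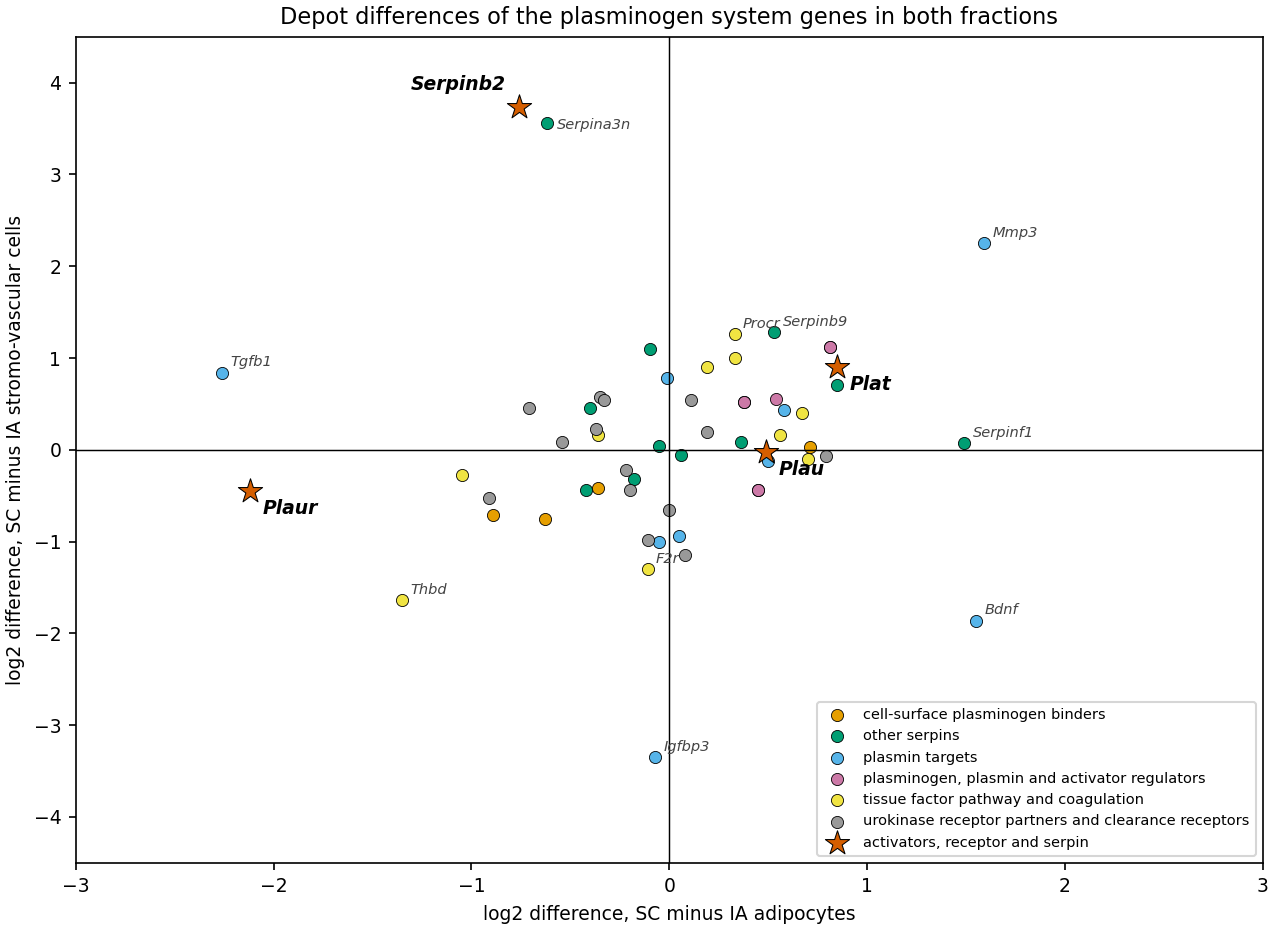
Log2 difference between subcutaneous (SC) and intraabdominal (IA) adipocytes (x axis) and between SVF cells of the same depots (y axis) for each tested gene of the lists, with Plaur, Plau, Plat and Serpinb2 as stars. Serpinb2 and Serpina3n lie together at the top, and Plaur and Tgfb1 at the left.

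The list of plasminogen itself and its other regulators had 4 tested genes of 12 listed. Serping1, which is also among the serpins, was the 1 called gene in each depot comparison, with the loss of its adipocyte call given above. Serping1 was higher in the subcutaneous depot, as were 3.97% of all probe sets in adipocytes and 6.49% in SVF cells. Plg, the plasminogen gene, averaged 680 ± 247 in subcutaneous and 450.4 ± 128 in intraabdominal adipocytes, and 673 ± 10.1 in subcutaneous and 452 ± 72.7 in intraabdominal SVF cells. It was called in none of the 5 comparisons.

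Of 14 receptors and partners of urokinase and its receptor, 9 were lower and 3 higher in subcutaneous adipocytes than in SVF cells. In intraabdominal adipocytes 10 were lower and 2 higher. Over all probe sets 29.4% were lower and 23.5% higher in subcutaneous fat, and 29% lower and 22.4% higher in intraabdominal fat. The median log2 difference of the list was -1.15 in subcutaneous and -0.93 in intraabdominal fat, beside -0.04 and -0.11 over all probe sets. Itgav, the integrin alpha v chain, was 3.67-fold lower in subcutaneous and 4.31-fold lower in intraabdominal adipocytes. Vtn (vitronectin), a matrix ligand of the urokinase receptor, went the other way, at 781 ± 321 in subcutaneous adipocytes and 937 ± 154 in intraabdominal adipocytes, against 50.3 ± 12.9 and 21.9 ± 5.82 in the SVF cells of the same depots. These SVF signals lie near the pseudocount of 40.2, so the size of the difference is uncertain. In intraabdominal fat its log2 value ran from 2.35 to 4.7 over the alternatives. Between depots 2 of the 14 were lower in subcutaneous adipocytes, namely Egfr and Lrpap1, where 4.16% of all probe sets were lower. The call of Egfr (adjusted p = 0.0378) was lost in 12 of 23 alternatives, among them the omission of subcutaneous adipocyte array 2 or 3, intraabdominal adipocyte array 1 or 2, any subcutaneous SVF array or intraabdominal SVF array 3 (adjusted p = 0.0517 to 0.12), the replicate block (0.0644) and the actin covariate (0.465). That of Lrpap1 (adjusted p = 0.0172) was lost in 4 of 23, among them without array 2 of either adipocyte group (0.0528 and 0.0659), and another Lrpap1 probe set pointed the other way. Between SVF cells 1 of the 14 was higher and 2 lower in the subcutaneous depot, beside 6.49% and 6.45% of all probe sets. The higher one was Lrp1, the endocytic receptor that clears complexes of activator and serpin (18550 ± 2590 in subcutaneous and 12677 ± 459 in intraabdominal cells, adjusted p = 0.0156). Its call was lost without subcutaneous SVF array 3 (adjusted p = 0.091) and with no intensity trend in the variance model (adjusted p = 0.0544).

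Genes of the tissue factor pathway were mostly lower in adipocytes than in plated SVF cells, 7 of 10 in each depot, where 29.4% and 29% of all probe sets were lower. In subcutaneous fat 1 was higher and in intraabdominal fat none. The list's median log2 difference was -2.26 and -1.44, beside -0.04 and -0.11 over all probe sets. F3, tissue factor, the trigger of coagulation, read 2738 ± 389 in subcutaneous adipocytes against 48245 ± 2370 in subcutaneous SVF cells (adjusted p = 6.46e-12). It was 17.5-fold lower in subcutaneous and 12.2-fold lower in intraabdominal adipocytes (adjusted p = 2.42e-11 for the second). Between depots Thbd (thrombomodulin) was lower in the subcutaneous depot in both fractions, by -1.35 in adipocytes (adjusted p = 0.000349) and -1.64 in SVF cells (adjusted p = 1.51e-05). Procr, the endothelial receptor of protein C, was 2.39-fold higher in subcutaneous SVF cells (adjusted p = 0.000168), and F2r, a thrombin receptor, was 2.47-fold lower (adjusted p = 0.00161). In that comparison 2 of the 10 were higher and 2 lower, beside 6.49% and 6.45% of all probe sets.

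Plasmin's known targets were mostly called lower in adipocytes than in SVF cells, 9 of 9 in subcutaneous and 7 of 9 in intraabdominal fat. Over all probe sets 29.4% were lower in subcutaneous and 29% in intraabdominal fat. Of the 9 in subcutaneous fat, Fgf2 was near the threshold (adjusted p = 0.0487). Fn1 was uncalled there with the actin covariate (adjusted p = 0.386). Their median log2 difference was -2.44 and -2.85, beside -0.04 and -0.11 over all probe sets. Between the depots they moved both ways. Mmp3 (stromelysin 1), a matrix protease whose precursor plasmin cuts, was higher in the subcutaneous depot in adipocytes (622 ± 198, against 179.5 ± 70.4 in intraabdominal adipocytes, adjusted p = 0.000726) and in SVF cells (68072 ± 3880, against 14274 ± 1370 in intraabdominal cells, adjusted p = 9e-06). The call in adipocytes was lost with those 6 arrays alone (1.59, adjusted p = 0.0556) and with the actin covariate (1.65, adjusted p = 0.0606). Igfbp3, a binding protein of insulin-like growth factors, was 10.2-fold lower in subcutaneous SVF cells (adjusted p = 1.17e-07). Tgfb1, the transforming growth factor whose latent form plasmin can release, averaged 149.6 ± 23.7 in subcutaneous and 964 ± 477 in intraabdominal adipocytes (adjusted p = 0.00138), the same direction as Plaur. With the actin covariate the difference was -2 ± 0.59 and was not called (adjusted p = 0.137). Its depot difference between the fractions differed by -3.10 (adjusted p = 0.00115). The subcutaneous depot was higher for 2 and lower for 1 of the 9 in adipocytes, beside 3.97% and 4.16% of all probe sets. In SVF cells it was higher for 2 and lower for 2, beside 6.49% and 6.45% of all probe sets.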

How the data were processed

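The authors deposited 1 intensity per probe set and array, on a linear scale, computed with MAS5 per the submitters' processing notes; no version or detection call was used. Across arrays the highest 2% trimmed mean was 1.00017 times the lowest, so the values were used as deposited. Control probe sets (66) were left out. Of the remaining 12422, 10833 had 1 symbol, 396 several and 1193 none in the platform annotation. The pseudocount was the 10th percentile of all values, 40.2, and the lowest 30% by mean log2 signal (below a signal of about 173) were left out.

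All 12 arrays entered 1 model with a mean for each of the 4 groups, in limma 3.58.1 in R 4.3.3 (eBayes with an intensity trend, 8 residual degrees of freedom). The 5 contrasts were the depot difference in each fraction, the fraction difference in each depot and their interaction. They share arrays. The fit was tested on simulated data. Whether the 3 arrays of a group come from separate pools is unstated, and the p-values then reflect only variation among these arrays, which may be technical. No 2 arrays were identical.

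The genes and lists were chosen with earlier results of these data known. Named were all 4 genes in every contrast, up to 4 called genes of a list with the smallest p, and the 3 genes with the highest Pearson's r to each. Plg, and Vtn and Fgf2 in subcutaneous fat, fall outside this rule and were named after their values were seen. A gene was read on its brightest probe set. Promoter sequences are from RefSeq (GRCm38.p6). The alternatives were another pseudocount, filter, normalization, variance model, array weights, subset of arrays, replicate block, the actin ratio as covariate, and each array left out.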

Additional observations from a re-analysis of the deposited data

Results flagged for a closer look

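Serpinb2 stood out because its depot difference was not the same in the fractions. The depot difference (log2) in adipocytes, less that in SVF cells, was -4.49 (adjusted p = 3.91e-06). All 3 subcutaneous SVF arrays were above all 3 intraabdominal ones, while the subcutaneous and intraabdominal adipocyte arrays overlapped.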

How the results depend on the processing

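The 20 log2 differences of the 4 genes gave 456 values over the alternatives, of which 413 kept direction and call and 27 became called. Another 3 kept direction but lost their call, all with the actin ratio as covariate, and 13 turned sign. All but 1 of the sign changes were in differences that were not called. The exception was Plat between the fractions of subcutaneous fat, at 0.13 with that covariate, so its call was lost too (adjusted p = 0.958). The covariate also gave -0.35 for Plaur between the fractions of intraabdominal fat and 0.47 for the interaction of Plat. Array weights gave 0.12 for Plau between the SVF cells of the depots and 0.03 for the interaction of Plat. With each array left out, Plau ran from -0.37 to 0.22 between the SVF cells and from -0.60 to 0.03 between the fractions of subcutaneous fat, and the interaction of Plat from -0.36 to 0.29. The cause was not tested.

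Between adipocytes 707 probe sets were called, against 97 with the covariate and 299 with those 6 arrays alone. The interaction uses all arrays, so no fit of fewer groups was possible for it. Leaving out 1 array gave 367 (without intraabdominal adipocyte array 2) to 958, and 375 without array 1. Array weights gave 1952 calls between SVF cells in place of 1125. With the covariate, which separates the fractions, 1058 were called in place of 4595 in subcutaneous fat, 2173 in place of 4462 in intraabdominal fat and 403 in place of 733 for the interaction.

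Of the 4 genes, between adipocytes 1 was called as deposited, 2 after quantile normalization or median centring, 0 with the covariate and 1 to 3 with an array left out. Between SVF cells 1 was called, 2 with array weights or with those arrays alone, and 1 to 2 with an array left out. Between the fractions of subcutaneous fat 3 were called and 1 with the covariate. In intraabdominal fat 1 was called, 2 with a pseudocount of 200, the lowest 50% of probe sets left out or array weights, 3 with those arrays alone, 0 with the covariate and 1 to 3 with an array left out. For the interaction 1 was called, 2 after quantile normalization, median centring or array weights, and 1 to 2 with an array left out. Over all probe sets the main fit called 8.13% between adipocytes, 12.9% between SVF cells and 8.43% for the interaction. Between the fractions it called 52.8% in subcutaneous and 51.3% in intraabdominal fat. The numbers over all probe sets shifted with the alternatives too, as given above, so these counts do not single out the 4 genes.

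With the replicate number as a block, 3 genes were called between the fractions of intraabdominal fat, Plau (adjusted p = 0.0145) and Serpinb2 (adjusted p = 0.0394) beside Plat, and 595 probe sets between adipocytes. In the main fit 51.3% of all probe sets were called between those fractions. The deviations of same-numbered arrays, taken over all tested probe sets, correlated at -0.09 to 0.11, over 0.1 in 1 of 18 pairs. Whether same-numbered arrays share a source is unstated and was not tested for single genes. Plau read highest on array 1 in each of the 4 groups. Median centring moved the median of all probe sets between adipocytes to -0.15, from 0.07 as deposited. It moved the share of calls that were higher to 18%, from 48.8%, and for the interaction to 32.9%, from 46.2%. Of the listed genes, up to 4 called differences with the smallest p per list and comparison were followed over the alternatives. These 77 differences gave 1757 values, of which 126 lost their call and 0 turned sign. The other called differences of the lists, which had larger p, were not followed. With the covariate 18 of the 77 lost it. The number of arrays limits all values.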
